A study of Mus musculus with 6 samples.

Results

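The genes described here are 4 MAP kinase phosphatases (Dusp1, Dusp4, Dusp5 and Dusp6), 3 Sprouty genes (Spry1, Spry2 and Spry4) and 3 early response genes (Egr1, Ier2 and Ier3). They were chosen by symbol, each symbol matched exactly 1 row, and they make up 10 of the 23358 gene rows of the deposited count table. RNA was sequenced from MC3T3-E1 cells, a pre-osteoblast line from the calvaria of C57BL/6 mice, grown to confluency in medium with serum. The 3 NU7441 samples had received that inhibitor of the DNA-dependent protein kinase at 1 µM for 16 h, and the 3 DMSO samples its solvent for the same time. The series' design text says that RNA was pooled from triplicates of separate experiments. Which cultures went into which sample is not stated, so the p-values below reflect how much these samples differ, which may be technical.

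When growth factors reach their receptors, the kinase cascade of RAS, RAF, MEK and ERK switches on immediate early genes, whose transcription needs no new protein, and Egr1, a zinc finger transcription factor, is a classic example. The same pathway induces its own brakes. The DUSP enzymes remove the activating phosphates of MAP kinases, Dusp5 acting on ERK in the nucleus and Dusp6 on ERK in the cytoplasm, and Sprouty proteins dampen the signal between the receptors and RAF. The RNA of these genes is short-lived and is widely used as a readout of ERK activity. In osteoblast-lineage cells the pathway carries signals of fibroblast growth factors and of other growth factors in serum.

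Gene counts summed to between 52150994 and 55021692 in the NU7441 samples and between 47312968 and 71292628 in the DMSO samples. All deposited counts are even, so that each read pair appears to count as 2, here and in all counts below. The osteoblast transcription factor Runx2 averaged 176 counts per 1000000 counts (CPM) in NU7441 and 174 CPM in DMSO, whereas Bglap, the osteocalcin gene of mature osteoblasts, had from 2 to 12 counts per sample. Of 9 pre-osteoblast markers tested, 2 passed the test described below as lower in NU7441, Ibsp at 7.09 against 13.1 CPM in DMSO and Alpl at 32.7 against 39.9 CPM, both calls lost in the robust fit (edgeR, adjusted p = 0.0589 and 0.0950). Another 2 passed as higher, Spp1 at 1632 against 1377 CPM in DMSO and Col1a2 at 23076 against 22271 CPM, and the call of Col1a2 was lost without NU7441 replicate 2, NU7441 replicate 3, DMSO replicate 1 or DMSO replicate 2 (edgeR, adjusted p from 0.0671 to 0.107), with library size only (0.14), DESeq2 (0.111), limma-voom (0.0701) and the robust fit (0.189). The summed levels of the other lists lay, in NU7441 and DMSO samples, between 6.72 and 7.45 and between 7.61 and 7.80 CPM for macrophages (Ptprc at 0), between 1.66 and 2.00 and between 1.24 and 1.99 CPM for epithelium (Epcam, Krt8 and Krt18 at 0), and under 2 CPM for muscle (Myod1 and Myf5 at 0), endothelium (Kdr at 0) and adipocytes. Other genes of these lists had counts in every sample. Lyz2 gave most of the macrophage sum, at 5.07 CPM in NU7441 and 5.31 CPM in DMSO, with Cd68 and Csf1r lower. Cdh1 gave most of the epithelial sum, at 1.78 CPM in NU7441 and 1.72 CPM in DMSO. Des, Pecam1 and Fabp4 had the highest mean levels of the muscle, endothelial and adipocyte lists. None of these genes passed the test described below. NU7441 replicate 2 held 22 counts of the adipocyte gene Cfd, against 0 to 2 in each other sample. Of 5 chondrocyte markers only 2 were tested, Sox9 and Col2a1. Both passed and were higher in NU7441, at 79.3 and 9.94 CPM against 72.2 and 8.49 CPM in DMSO. Of the 6 fits that left out a sample, the call of Col2a1 held without NU7441 replicate 3 and was lost in the other 5 (edgeR, adjusted p from 0.0890 to 0.173), and it was also lost with library size as the only scaling (0.0730), DESeq2 (0.0756) and a minimum of 1 CPM (0.0501). Acan was at 0, and the summed level of the list lay between 85.7 and 90.3 CPM in NU7441 and between 80.6 and 82.7 CPM in DMSO. Of all genes tested 30.7% passed, against 44.4% of the 9 pre-osteoblast markers tested. The part of these markers in the results below was not tested. In bulk RNA, fewer cells of a type and less RNA per cell cannot be told apart.

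Upstream sequence is shown for 3 of the genes because their promoters differ in the elements that early response genes are known for. Promoter sequence from RefSeq (GRCm38.p6, the same chromosome sequence as mm10) was used for Dusp1, Dusp5, Dusp6, Ier3, Spry1 and Spry2, 6 of the 10, and the promoters of Dusp4, Egr1, Ier2 and Spry4 were not analysed here. Each line gives the 250 bases before the annotated start, 5′ to 3′ on the gene's own strand. Capitals mark every match, on either strand, to the CArG box bound by serum response factor, the cAMP response element TGACGTCA, its shorter form TGACG, the AP-1 element TGANTCA, the ETS core CCGGAA or the EGR element GCGNGGGCG.
Dusp5, chr19:53528895-53529144, plus strand: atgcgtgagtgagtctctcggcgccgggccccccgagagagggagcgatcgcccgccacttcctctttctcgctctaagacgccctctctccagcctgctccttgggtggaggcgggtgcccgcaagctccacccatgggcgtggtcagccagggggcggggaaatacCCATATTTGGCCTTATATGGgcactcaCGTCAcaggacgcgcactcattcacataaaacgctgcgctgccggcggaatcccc
Dusp1, chr17:26508473-26508722, minus strand: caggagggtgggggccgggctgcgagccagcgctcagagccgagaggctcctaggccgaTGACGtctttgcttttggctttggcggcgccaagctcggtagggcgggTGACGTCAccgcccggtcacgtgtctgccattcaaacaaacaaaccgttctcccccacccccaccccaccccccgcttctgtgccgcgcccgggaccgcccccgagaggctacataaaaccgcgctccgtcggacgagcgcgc
Spry1, chr3:37639697-37639946, plus strand: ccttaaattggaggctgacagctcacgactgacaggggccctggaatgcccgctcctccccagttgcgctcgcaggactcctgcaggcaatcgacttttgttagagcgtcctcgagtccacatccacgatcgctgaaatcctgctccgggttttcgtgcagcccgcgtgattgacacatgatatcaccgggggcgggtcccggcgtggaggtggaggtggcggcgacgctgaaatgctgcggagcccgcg
Dusp5 held 2 CArG boxes next to each other, CCATATTTGG from 82 to 73 bases and CCTTATATGG from 72 to 63 bases before the start, and of 32851 promoter windows of this length 1.47% held any. A TGACG on the minus strand stood 55 to 51 bases before the start of Dusp5, and 17.8% of all windows hold that short form. Dusp1 held the full cAMP response element from 143 to 136 bases before its start, within which the short form also matches, and a further TGACG from 191 to 187 bases. The full element is found in 1.55% of windows. Spry1, Spry2, Dusp6 and Ier3 had no match to any of these 6 motifs in this window, which says only that these letters were not there. A match is not evidence that a factor was bound.

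In NU7441, 2 of the 10 genes were higher, Dusp5 and Egr1, 1 was lower, Spry1, and 7 did not pass. Genes were tested with edgeR's quasi-likelihood test over the whole table, and a gene passed when its Benjamini-Hochberg adjusted p over 13784 tested genes was under 0.05. Among all genes 30.7% of tested genes passed, 14.1% higher and 16.6% lower, so that 3 of 10 is a share near the background. All 10 genes passed the filter on low counts. Their median log2 fold change was 0.10, against 0.01 over all tested genes, and the median size of change regardless of sign was 0.15, against 0.12. The changes that passed were of modest size, from 0.81-fold for Spry1 to 1.27-fold for Dusp5. The groups' CPM ranges did not overlap for the same 3 genes, whereas this held for 42.8% of all tested genes, with NU7441 above DMSO in 20.6% and below it in 22.2%.

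**Figure D1:**
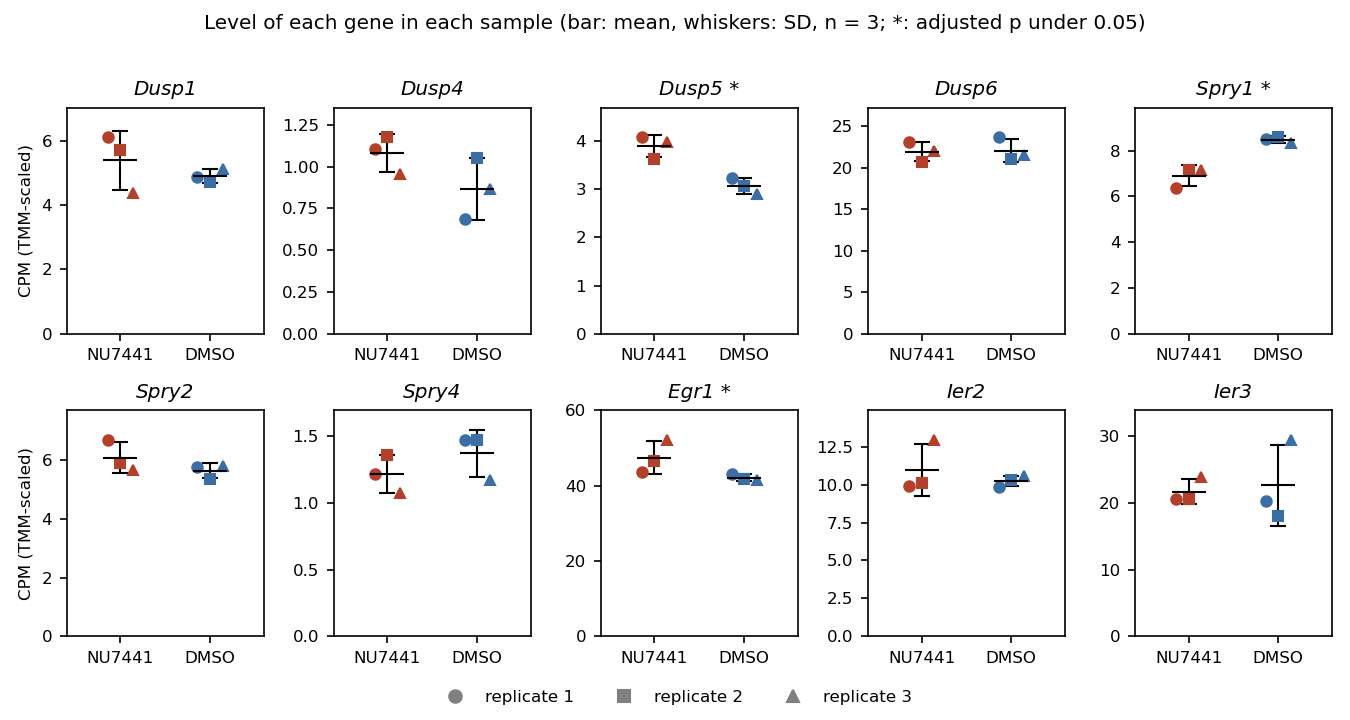
Level of each of the 10 genes in CPM (scaled by TMM, y axis from 0) in the 3 NU7441 and 3 DMSO samples; symbols give the replicate number, bars the mean and whiskers the SD, and an asterisk marks an edgeR adjusted p under 0.05. The NU7441 samples lie above all DMSO samples for Dusp5 and Egr1 and below all of them for Spry1.

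Of the phosphatases, Dusp5, which dephosphorylates ERK in the nucleus, had 4.09, 3.64 and 3.98 CPM in the NU7441 samples, against 3.24, 3.08 and 2.90 CPM in the DMSO samples. Every NU7441 sample was above every DMSO sample. Dusp5 rose 1.27-fold (log2 fold change 0.35 ± 0.12 (SE), edgeR adjusted p = 0.0394), with a 95% interval of 1.07- to 1.52-fold. This call stands close to the threshold. It was lost with library size as the only scaling (adjusted p = 0.0519), with DESeq2 (adjusted p = 0.0759), and in edgeR without NU7441 replicate 1 (adjusted p = 0.0941), NU7441 replicate 3 (0.0982), DMSO replicate 1 (0.0519), DMSO replicate 2 (0.0777) or DMSO replicate 3 (0.133). The fold change stayed between 0.30 and 0.40 on the log2 scale in all 17 alternatives. The row of Dusp5 is listed on chromosome 19 (mm10, 53529318 to 53541322, plus strand), and GENCODE M21 places the gene from 53529109 to 53542431. The promoter window shown above ends at 53529144, so its start is neither of these. In the deposited rows, Snora19, listed from 24942236 to 60774385, also spans Dusp5. The row of Dusp5 is listed with a length of 1155 bases, against 1152 bases of coding exons without the stop codon and 2473 bases of all merged exons in GENCODE M21. Its row thus appears to count coding sequence alone, while the other 9 rows are listed with lengths well above their coding exons. GENCODE M21 places the antisense transcript AC137853.2, which has no row in the table, over the start of Dusp5.

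Dusp6, the cytoplasmic phosphatase of ERK and the most abundant of the 4, had 23.1, 20.8 and 22.0 CPM in NU7441, against 23.7, 21.0 and 21.5 CPM in DMSO. The groups overlapped, and the fold was 0.994 with a 95% interval of 0.914 to 1.08 (edgeR, adjusted p = 0.93). That interval leaves out a change of the size estimated for Dusp5. The difference between the changes of Dusp5 and Dusp6 was not itself tested.

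Dusp1 encodes the nuclear phosphatase MKP-1, which acts on p38 and JNK as well as ERK, and is itself an early response gene. It had 6.11, 5.70 and 4.37 CPM in NU7441, against 4.86, 4.72 and 5.13 CPM in DMSO. Replicates 1 and 2 of NU7441 lay above all DMSO samples and replicate 3 below all of them, so the spread within NU7441 (SD 0.911 CPM) was wider than within DMSO (SD 0.207 CPM). The fold was 1.10 with a 95% interval of 0.914 to 1.32 (edgeR, adjusted p = 0.45). Without NU7441 replicate 3 its log2 fold change was 0.26 (edgeR, adjusted p = 0.0989).

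Dusp4, the nuclear phosphatase MKP-2, was scarce, with 58, 64 and 50 counts in NU7441, against 38, 50 and 62 counts in DMSO. Each read pair appears to count as 2 in these numbers. After scaling these were 1.11, 1.18 and 0.958 CPM in NU7441, against 0.684, 1.05 and 0.864 CPM in DMSO, and the lowest NU7441 sample lay below the highest DMSO sample. The log2 fold change of 0.33 was close to that of Dusp5, but its SE was 0.24, and the 95% interval ran from 0.882- to 1.78-fold (edgeR, adjusted p = 0.34). That interval holds both no change and the change estimated for Dusp5.

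**Figure D2:**
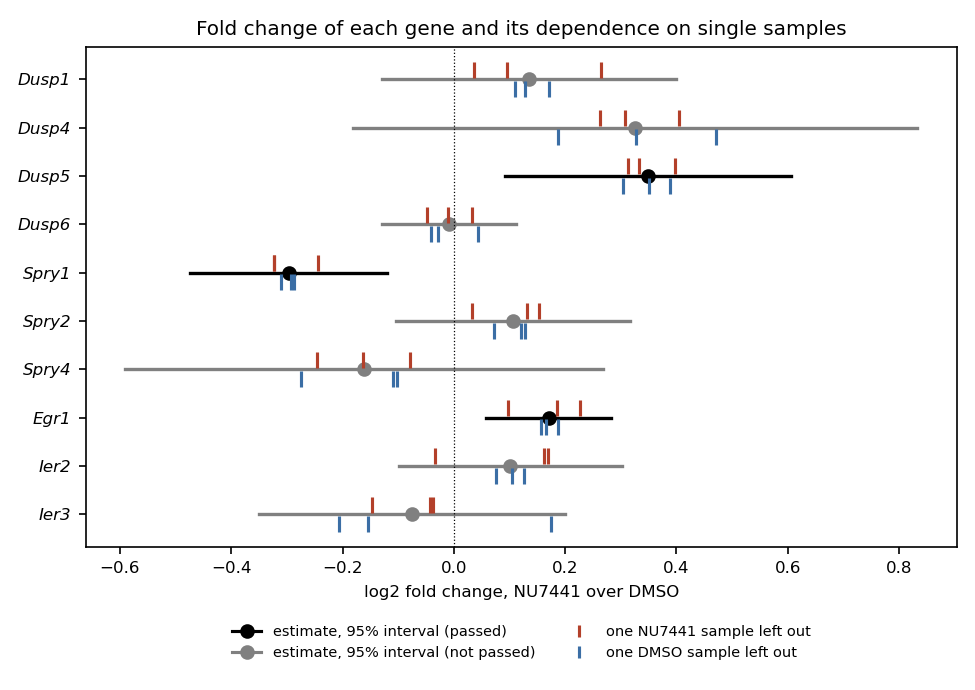
Log2 fold change of NU7441 over DMSO for each gene (x axis) with its 95% interval from edgeR; black marks genes that passed and grey those that did not, and small ticks give the estimate with a single NU7441 or DMSO sample left out. The interval is narrow for Dusp6 and Egr1 and wide for Dusp4 and Spry4, and the ticks cross 0 for Dusp6, Ier2 and Ier3.

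Of the Sprouty genes, inhibitors of receptor tyrosine kinase signalling, Spry1 fell, and Spry2 and Spry4 did not pass. Spry1 had 6.38, 7.17 and 7.16 CPM in NU7441, against 8.53, 8.60 and 8.33 CPM in DMSO. All NU7441 samples were below all DMSO samples, and the DMSO samples agreed within an SD of 0.137 CPM. Spry1 fell to 0.814-fold (log2 fold change -0.30 ± 0.08 (SE), edgeR adjusted p = 0.0133), with a 95% interval of 0.720- to 0.921-fold. It passed in 16 of the 17 alternatives, the exception being the fit without NU7441 replicate 1, the lowest sample (log2 fold change -0.24, adjusted p = 0.0616). Spry1 lies on chromosome 3 (mm10, 37639950 to 37644599, plus strand), where GENCODE M21 places a transcript still to be tested experimentally, Gm42922, on the opposite strand over its start, and Gm42922 has no row in the table.

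Spry2, a relative that dampens the same pathway, had 6.68, 5.88 and 5.67 CPM in NU7441, against 5.76, 5.35 and 5.80 CPM in DMSO, with NU7441 replicate 1 the highest of the 6. The fold was 1.08 with a 95% interval of 0.930 to 1.25 (edgeR, adjusted p = 0.46). The intervals of Spry1 and Spry2 do not overlap, though the difference between them was not tested. Spry4, the third of the family, was scarce at 56 to 74 counts in NU7441, against 70 to 84 counts in DMSO. Its fold was 0.894 with a 95% interval of 0.664 to 1.20 (edgeR, adjusted p = 0.60), so the data allow a fall as large as that of Spry1 as well as no fall.

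Egr1, the transcription factor among the early genes, had 43.6, 46.6 and 52.2 CPM in NU7441, against 43.2, 41.9 and 41.5 CPM in DMSO. The lowest NU7441 sample stood just above the highest DMSO sample, and the DMSO samples lay close together (SD 0.906 CPM, against 4.35 CPM in NU7441). Egr1 rose 1.13-fold (log2 fold change 0.17 ± 0.05 (SE), edgeR adjusted p = 0.0231), with a 95% interval of 1.04- to 1.22-fold. Its size rests in part on NU7441 replicate 3, without which the log2 fold change was 0.10 and the call was lost (edgeR, adjusted p = 0.122). The call was also lost without DMSO replicate 2 (adjusted p = 0.0724) or DMSO replicate 3 (adjusted p = 0.0770). Egr1 passed in the other 14 alternatives, all 3 scalings and DESeq2 among them. Its row is listed on chromosome 18 (mm10, 34861207 to 34864956, plus strand), and GENCODE M21 places the gene from 34859823 to 34864984.

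Ier2, a small nuclear protein induced early by growth factors, had 9.93, 10.1 and 12.9 CPM in NU7441, against 9.86, 10.3 and 10.5 CPM in DMSO. As for Egr1, NU7441 replicate 3 was the highest of the 6 samples, and the other NU7441 samples lay within the DMSO range. The fold was 1.07 with a 95% interval of 0.934 to 1.23 (edgeR, adjusted p = 0.46), and without NU7441 replicate 3 the log2 fold change was -0.03. Ier3, a stress- and growth factor-induced gene linked to cell survival, had 20.6, 20.5 and 23.8 CPM in NU7441, against 20.2, 18.1 and 29.4 CPM in DMSO. DMSO replicate 3 stood apart, above every other sample, and set the direction: the log2 fold change of Ier3 was -0.08 with all samples (edgeR, adjusted p = 0.71) and 0.17 without DMSO replicate 3 (adjusted p = 0.113). DMSO replicate 3 also had the largest total count.

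**Figure D3:**
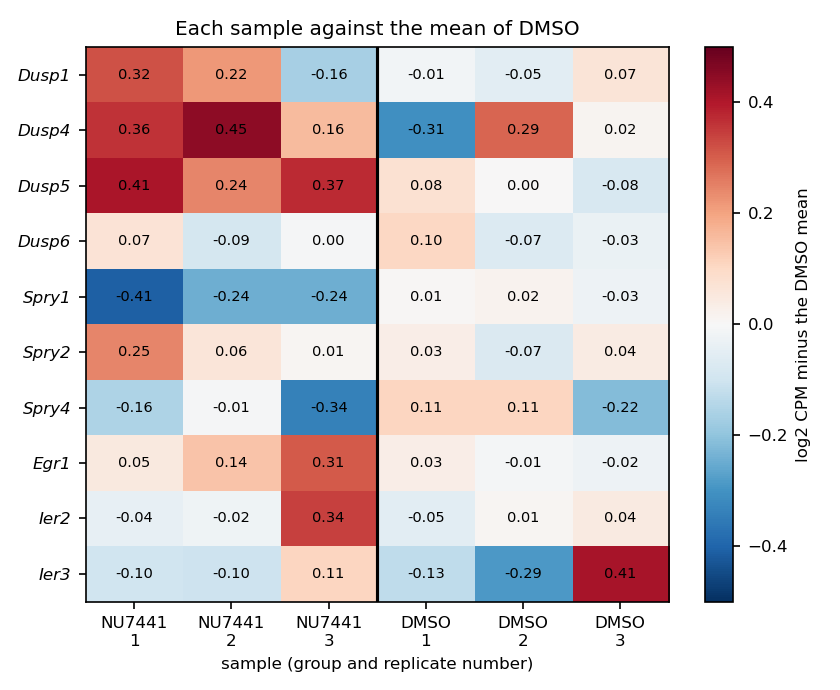
Log2 CPM of each gene (rows) in each sample (columns) minus the mean of the 3 DMSO samples, printed in each cell and coloured from -0.5 to 0.5. Egr1, Ier2 and Ier3 have their highest NU7441 value in replicate 3, the sample in which Dusp1, Dusp4, Spry2 and Spry4 have their lowest.

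Across the NU7441 samples the genes did not vary as a block. Replicate 3 held the highest NU7441 value of the 3 early genes Egr1, Ier2 and Ier3 and the lowest NU7441 value of 4 feedback genes, Dusp1, Dusp4, Spry2 and Spry4. In that sample Ier2 stood 0.34 and Egr1 0.31 above the DMSO mean on the log2 scale, and Dusp1 stood 0.16 below it. NU7441 replicate 1 showed another order, with the highest NU7441 values of Dusp1, Dusp5, Dusp6 and Spry2 and the lowest of Spry1, Egr1 and Ier2. Dusp5 and Dusp6 were lowest in NU7441 replicate 2. Within DMSO, early and feedback genes did not part in this way. DMSO replicate 3 held the highest DMSO values of Dusp1, Spry2, Ier2 and Ier3 and the lowest of Dusp5, Spry1, Spry4 and Egr1. Over the 6 samples and 10917 other genes of at least 1 CPM, the log2 levels most like those of Spry1 were of Gemin8 and Fam198b (Pearson r = 0.996 for each). For Dusp5 they were of BC100451 (r = 1.00) and Exoc6b (r = 0.996), and for Egr1 of Usp33 (r = 0.987, or 0.864 with library size as the only scaling) and Armcx5 (r = 0.982). These are descriptions over 6 points that share libraries and group. Each r is among the 2 highest of a search over all those genes, so a high value says little. Dusp6, which did not pass, likewise had a best match at r = 0.995 (Pank3).

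Levels between genes were compared per length, as the authors' deposited RPKM (reads per 1000 bases of listed length and per 1000000 reads). Ier3 was the highest in NU7441 at 14.7 ± 1.18 RPKM (SD, n = 3), against 15.7 ± 4.29 RPKM in DMSO, and Egr1 followed at 11.4 ± 0.935 RPKM in NU7441, against 10.4 ± 0.229 RPKM in DMSO. Dusp6, at 5.82 ± 0.398 RPKM in NU7441 and 5.98 ± 0.401 RPKM in DMSO, and Ier2, at 5.34 ± 0.791 RPKM in NU7441 and 5.08 ± 0.182 RPKM in DMSO, came next. Their samples overlapped in NU7441 and not in DMSO. A middle group held Spry1, Spry2, Dusp5 and Dusp1. In NU7441 their means ran from 2.05 RPKM for Spry1 to 2.51 RPKM for Dusp5, and each neighbour in that order overlapped with the next. In DMSO Spry1 stood clear of the other 3, at 2.58 ± 0.026 RPKM, with Spry2 at 2.04 ± 0.103, Dusp5 at 2.01 ± 0.107 and Dusp1 at 1.91 ± 0.094 RPKM, whose neighbours overlapped. Spry1 thus had rank 8 of 10 in NU7441 and rank 5 in DMSO. Dusp4 and Spry4 were far lower, at 0.330 ± 0.035 and 0.197 ± 0.023 RPKM in NU7441, against 0.270 ± 0.056 and 0.226 ± 0.028 RPKM in DMSO. The RPKM of Dusp5 divides by the coding length, so its place among the others depends on which exons were counted.

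**Figure D4:**
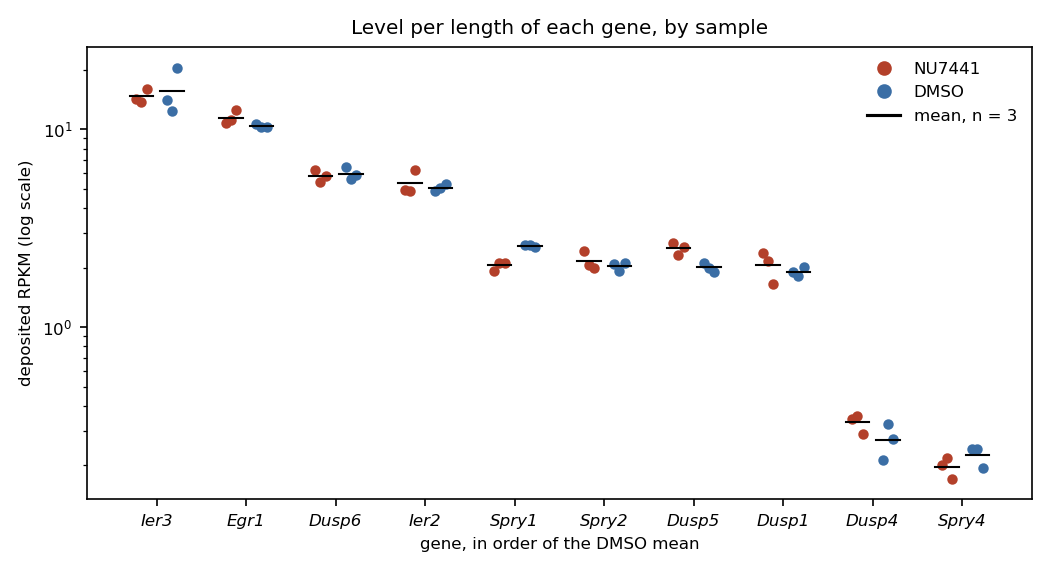
Deposited RPKM (log axis) of each gene in the 3 NU7441 samples (left of each pair) and 3 DMSO samples (right), ordered by the DMSO mean, with a line at each mean. Ier3 and Egr1 lie above 10 RPKM, a middle group near 2 RPKM, and Dusp4 and Spry4 below 0.4 RPKM.

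Relatives of these genes were read from the same test. Of 13 other phosphatases that act on MAP kinases 11 were tested. Dusp16, a phosphatase of JNK and p38, rose by 0.16 ± 0.05 (log2 fold change, edgeR adjusted p = 0.0191), and Dusp7, a cytoplasmic ERK phosphatase closely related to Dusp6, fell by 0.13 on the log2 scale (SE 0.04, adjusted p = 0.0326). The other 9 did not pass, Dusp8 and Dusp14 at -0.24 each among them (adjusted p = 0.11 and 0.12). The median was -0.06, and 18.2% of the list passed, against 30.7% of all tested genes. The call of Dusp16 was lost without NU7441 replicate 2 (adjusted p = 0.0785), without DMSO replicate 3 (0.0660) and with DESeq2 (0.0555). That of Dusp7 was lost without NU7441 replicate 1 (0.0743), NU7441 replicate 2 (0.103) or DMSO replicate 3 (0.182), with upper-quartile scaling (0.0780) and with DESeq2 (0.0662). Spry3 and the SPRED genes are the remaining Sprouty relatives, of which 3 were tested. Spred3 rose by 0.18 ± 0.07 (edgeR, adjusted p = 0.0454), a call kept in the fit without NU7441 replicate 1 and lost without any other sample (adjusted p from 0.0891 to 0.165). Spred1 and Spred2 were at -0.08 and 0.00, neither passing. With 1 of 3, 33.3% of these relatives passed, near the 30.7% of all tested genes.

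Genes known as targets of the ERK pathway, chosen because they fall when MEK is inhibited in other cells, went both ways. Of 23 tested, 4 fell and 2 rose, 17.4% and 8.7% of the list, against 16.6% and 14.1% of all tested genes. The share that fell is thus near that of all tested genes. In total 26.1% passed, against 30.7% of all tested genes, with a median of -0.05. Ccnd1, which encodes cyclin D1, fell to 249 CPM in NU7441, against 330 CPM in DMSO (log2 fold change -0.41 ± 0.03, edgeR adjusted p = 3e-07). Myc (-0.32 ± 0.06), Emp1 (-0.19 ± 0.04) and Fosl1 (-0.52 ± 0.15) fell too, and Epha2, an ephrin receptor (0.21 ± 0.04), and Errfi1, an inhibitor of the epidermal growth factor receptor (0.18 ± 0.05), rose. Fosl1 and Errfi1 are named after their values were seen, and Fosl1 lost its call without DMSO replicate 1 (edgeR, adjusted p = 0.0709). The ETS factors Etv4 and Etv5, which with the Sprouty and DUSP genes belong to the common ERK readout, had log2 fold changes of -0.31 and -0.09 (edgeR, adjusted p = 0.10 and 0.37) and were also named after their values were seen.

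The other immediate early genes were more often higher than lower. Of 40 tested, 15 rose and 3 fell, 37.5% and 7.5% of the list, against 14.1% and 16.6% of all tested genes, with a median of 0.11. The list was chosen with earlier results of these data known, so these shares are a description and not a test. Klf2, a transcription factor (0.68 ± 0.08), Rhob, a small GTPase (0.23 ± 0.04), and Cyr61, a secreted matrix protein (0.19 ± 0.03), rose. Jun (-0.24 ± 0.04) fell, as did Klf4 (-0.14 ± 0.05) and Klf10 (-0.32 ± 0.08), both named after their values were seen. Leaving out DMSO replicate 3 left 9 genes higher. Klf4 lost its call without NU7441 replicate 1 (edgeR, adjusted p = 0.0591), NU7441 replicate 2 (0.157), DMSO replicate 1 (0.0862) or DMSO replicate 3 (0.117), and with upper-quartile scaling (0.0726) and DESeq2 (0.0534). In the EGR family, given whole, Egr3 rose by 0.49 ± 0.15 (edgeR, adjusted p = 0.0231), a call lost without NU7441 replicate 3 (0.109), DMSO replicate 1 (0.0883) or DMSO replicate 3 (0.0965). Egr2 was at -0.04 ± 0.05 (adjusted p = 0.56) and Egr4, under 1 CPM, at 0.30 ± 0.32 (adjusted p = 0.53). The IER relatives Ier5 (-0.08 ± 0.05, adjusted p = 0.23) and Ier5l (0.04 ± 0.08, adjusted p = 0.75) did not pass, except Ier5 without DMSO replicate 2 (-0.13, adjusted p = 0.0465).

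**Figure D5:**
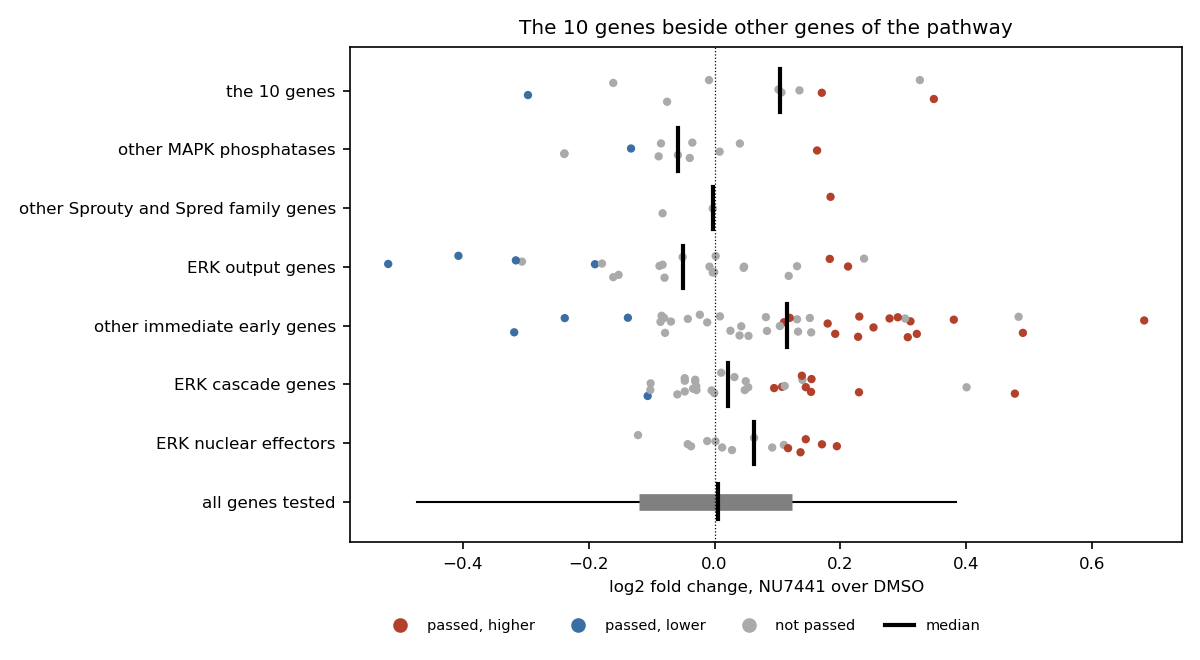
Log2 fold change of NU7441 over DMSO for the 10 genes and the tested genes of 6 related lists; red passed and was higher, blue passed and was lower, grey did not pass, and black bars are medians. The bottom row gives the median, the quartiles (-0.12 and 0.12) and the 5th and 95th percentiles (-0.47 and 0.38) of all tested genes, a spread within which most list genes lie.

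Genes of the cascade itself had a median size of log2 fold change, regardless of sign, of 0.06, against 0.12 over all tested genes. Of 30 tested, 8 rose and 1 fell, 26.7% and 3.33% of the list, against 14.1% and 16.6% of all tested genes, with a median of 0.02. Rras, a RAS-related GTPase, rose to 29.6 CPM in NU7441, against 21.3 CPM in DMSO (0.48 ± 0.05, edgeR adjusted p = 1.1e-05). The adaptors Shc1 (0.23 ± 0.03) and Gab1 (0.15 ± 0.04) and the kinases Braf (0.15 ± 0.04) and Araf (0.14 ± 0.04) rose, and the phosphatase Ptpn11, which helps to activate RAS, fell (-0.11 ± 0.03). The remaining 3 that passed were Frs2 (0.11 ± 0.04), Map2k1, which encodes MEK1 (0.14 ± 0.05), and Mapk3, which encodes ERK1 (0.09 ± 0.03). These 3, Araf and Ptpn11 are named after their values were seen. The calls of the 3 and of Ptpn11 were each lost without at least 1 sample: 5 genes rose in the fit that left out NU7441 replicate 3, in that without DMSO replicate 2 and with library size as the only scaling, and the number that fell was 2 without NU7441 replicate 1 or DMSO replicate 1 and 0 without DMSO replicate 3. Of 15 kinases and transcription regulators listed as ERK effectors, 5 rose and 0 fell, with a median of 0.06. These were 33.3% and 0% of the list, against 14.1% and 16.6% of all tested genes. The 5 that rose were Mknk1 (0.19 ± 0.04), Rps6ka5 (0.17 ± 0.04, named after its value was seen), Elk3 (0.14 ± 0.03), Mknk2 (0.14 ± 0.03) and Ep300 (0.12 ± 0.03). Not all of the 15 act between ERK and the early genes. The number that fell was also 0 at an unadjusted p under 0.05 in edgeR, and 0 with DESeq2 and with limma-voom at an adjusted p under 0.05. This list and the cascade list were chosen with earlier results of these data known, so their shares are a description and not a test.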

How the data were processed

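Per the labels' protocols, total RNA was made into libraries with an Illumina mRNA kit. Per the submitters' processing notes, bcl2fastq, TopHat2 version 2.0.6, HTSeq and the build mm10 were used; their settings, and whether strand was used in counting, are not given in the sources used here, and without strand the reads of genes on opposite strands at 1 place cannot be separated. For each of 23358 rows the authors deposited counts and RPKM per sample together with a length, per the file headers. All deposited counts are even (0 odd values), so that each read pair appears to count as 2. Per the file headers the length is a coding length, but for most of the 10 genes it holds untranslated regions.

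Counts as deposited were filtered with filterByExpr (at least 10 counts in enough samples and 15 in total). After TMM scaling they were tested with edgeR 4.0.16 in R 4.3.3 (quasi-likelihood, group as the only term, two-sided, Benjamini-Hochberg over all 13784 genes). The SE is the log2 fold change over the square root of F, and 95% intervals use the fit's degrees of freedom. CPM uses the scaled library sizes, except in summed marker levels, which use total counts. The biological coefficient of variation was 5.6%. DESeq2 1.42.0 and limma 3.58.1 gave alternatives, and the procedure was tested on simulated data. The RPKM values, deposited by the authors, were used only for levels between genes.

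The 10 genes and the 6 lists were chosen with earlier results of these data known, and Maff, Srf, Spred1 and Spred2 stand in 2 lists each. Named genes are the 10, up to 4 genes per list, taken by lowest adjusted p, the 2 genes most like each of the 10 by Pearson r, and Prkdc, the target of the inhibitor (log2 fold change -0.14, edgeR adjusted p = 0.016, lost without NU7441 replicate 1 or DMSO replicate 2, at 0.0546 and 0.0611). Not every gene that this rule took is described. The values of 1 gene of the cascade list are not reported here. The deviations of samples with the same number in both groups had correlations of 0.13, 0.09 and 0.05. These values do not settle whether the numbers pair the samples, and the main test did not pair them.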

Additional observations from a re-analysis of the deposited data

How the results depend on the processing

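The 10 genes, the gene counts and the list counts were recomputed under 17 alternatives, and levels with each sample left out. Of the 10 genes, 1 rose with library size as the only scaling and with DESeq2, and with each sample left out between 0 and 2 rose and between 0 and 1 fell. Log2 fold changes with each sample left out lay between 0.30 and 0.40 for Dusp5, between -0.32 and -0.24 for Spry1 and between 0.10 and 0.23 for Egr1, and Dusp5 was at 0.33 with library size only and at 0.35 with DESeq2, below the threshold in both. Dusp6, which did not pass, was at 0.017 with upper-quartile scaling and between -0.049 and 0.044 with each sample left out. With each sample left out Ier2 was between -0.033 and 0.17, Ier3 between -0.21 and 0.17, Spred2 between -0.037 and 0.019 and Ier5l between -0.014 and 0.11, and Spred2 was at 0.023 with upper-quartile scaling. With the replicate block, 5 other immediate early genes fell, 3 cascade genes fell and 1 Sprouty relative fell; it changed no call of the 10 genes. The block raised the number of genes called from 4231 to 5120, and each sample's deviations correlated best with those of its own number. The main test did not pair the samples by number, but that they are paired was not excluded. The number of cascade genes that fell was likewise 3 with library size only, with the minimum of 1 CPM, with the robust fit and with halved counts, and it was 2 with limma-voom, while 5 rose with library size only. Without single samples 9 to 14 other immediate early genes rose, 5 to 9 cascade genes rose and 0 to 2 fell. The counts of 1 for the other phosphatases and the Sprouty relatives became 0 with DESeq2, for Dusp7 also with upper-quartile scaling, and for Spred3 with library size only and halved counts, and lay between 0 and 1 with each sample left out. Spred1 fell, as 1 Sprouty relative, with library size only and with the minimum of 1 CPM. Upper-quartile scaling raised the share of calls that were higher to 56.5%, and library size only lowered it to 37.7%, against 45.9%; the 10 genes kept their sides of 0 in both, except Dusp6. Runx2 was at -0.0060 with library size only and between -0.014 and 0.037 with each sample left out. Dusp4 and Spry4 had the fewest counts and the largest SE of the 10 genes; how much of that SE is counting error was not tested.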
